A study of Mus musculus with 6 samples.

Results

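The enzymes and complexes that write, erase and read histone and DNA marks, or that slide and evict nucleosomes, were followed through the last steps of CD8 T cell development in the thymus. A list of 57 chromatin modifier and remodeler genes was taken, and each gene was represented by its brightest probe among those annotated with 1 gene symbol. Such a probe was found for 56 of the 57 genes, out of 18193 genes on the array with one, and 55 of them were bright enough to be tested, out of 10916 genes tested. Suv39h1, a histone H3 lysine methyltransferase of heterochromatin, had no probe under this rule and is not analysed here. Tet3, which oxidises methylated cytosine, lay under the filter on dim genes, with intensities of 12.0 and 20.1 in DP cells, 17.5 and 11.8 in CD4intCD8+ cells and 8.83 and -6.59 in CD8SP cells.

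Thymocytes had been sorted by staining for CD4 and CD8 into 3 stages, and 2 arrays measured each: double-positive (DP) cells with both coreceptors, CD4intCD8+ cells with less CD4, and CD8SP cells, which have lost CD4. All 3 populations came from mice of genotype N15 TCR tg+/+, RAG-2-/- and haplotype H-2b, 5 to 6 weeks old, with 6 animals of matched age and sex and a pair of independent experiments. Every group therefore carries the N15 T cell receptor transgene and lacks Rag2, with no wild-type population beside it, and the promoter of the transgene was not found in the labels. No label ties an array to its own animals, so the p-values reflect only how far these arrays differ among themselves, and having 2 arrays per stage limits the precision of every value.

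Chromatin state is set by opposing enzymes. Acetyltransferases add and deacetylases remove acetyl groups that loosen nucleosomes, methyltransferases and demethylases set methyl marks that favour or hinder transcription, and Polycomb complexes and DNA methylation keep genes silent. Remodelers of the SWI/SNF, ISWI and CHD families use ATP to move nucleosomes, and in thymocytes members of several of these families take part in silencing or opening the CD4 and CD8 coreceptor genes.

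The stage labels were checked first. Rag1, a recombinase gene of DP cells that is intact in these mice, had intensities of 1046 and 1054 in DP cells, 101 and 134 in CD4intCD8+ cells and 57.8 and 97.9 in CD8SP cells. Cd4 had 351 and 515 in DP cells, -33.0 and 11.8 in CD4intCD8+ cells and -65.8 and -68.6 in CD8SP cells, near or below 0 on the 4 arrays of the later stages. Cd8a and Cd8b1, which encode the CD8 chains kept at every stage, remained bright but fell by 0.98 ± 0.18 and 0.69 ± 0.13 on the log2 scale in CD8SP against DP (limma adjusted p = 0.00678 and 0.00705). The summed intensity of 5 general T cell genes was 11662 and 13228 in CD4intCD8+ cells and 11095.7 and 12509 in CD8SP cells, below the 15433 and 15764 of DP cells. Of these genes Thy1 fell in both later stages and Cd3d in CD8SP against DP. The median intensity of an array lay between 24.9 and 25.7, and the replicate arrays of a stage correlated across genes at 0.975 to 0.983. The ratio of the 3′ to the 5′ actin control probe, a sign of RNA or labelling quality, was 1.98 and 2.14 in DP cells, 2.37 and 3.47 in CD4intCD8+ cells and 2.28 and 2.62 in CD8SP cells, so it was highest on CD4intCD8+ replicate 2. On the 4 arrays of the later stages this ratio was above that of both DP arrays, and replicate 2 was the higher array at every stage. It therefore differed along with stage and with replicate number. In such bulk samples, fewer cells of a type and less RNA per cell cannot be told apart. Intensities of different probes are not on a common scale, so levels are compared between stages and not between genes.

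In CD8SP cells against DP cells, 13 of the 55 tested genes (23.6%) fell and 6 (10.9%) rose, where 8.35% of all tested genes fell and 11.5% rose. The genes that fell were the histone methyltransferase Setd7, the demethylases Kdm4a, Kdm5a, Kdm5b and Kdm6b, the acetyltransferases Crebbp and Kat2b, the deacetylases Hdac7 and Sirt2, and the SWI/SNF subunits Arid1a, Arid1b, Smarcd1 and Smarcd2. Those that rose were the deacetylase Hdac4, the acetyltransferase Kat2a, the remodeler Chd7, the Polycomb genes Eed and Cbx7, and the DNA methyltransferase Dnmt3b. In either direction 19 of 55 (34.5%) were called, against 19.8% of all tested genes. A call here is an adjusted p under 0.05 by limma's moderated test with Benjamini-Hochberg adjustment over all tested genes. This main fit held stage alone and did not pair the arrays.

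In CD4intCD8+ cells against DP cells, 8 of the 55 tested genes (14.5%) fell, namely Arid1b, Ep300, Ezh1, Hdac7, Kdm4a, Kdm5b, Setd7 and Smarcd2, where 4.84% of all tested genes fell. Only Cbx5 and Dnmt3b rose, 2 of 55 (3.64%), where 6.86% of all tested genes rose. In either direction this was 10 of 55 (18.2%), against 11.7% of all tested genes. With the stricter filter it was 12 of 51 (23.5%), against 17.3%. The median log2 difference of the 55 genes was -0.15 for CD4intCD8+ against DP and -0.21 for CD8SP against DP, while the median over all tested genes was 0.01 in both, and 32 and 38 of the 55 genes lay below 0. Both CD8SP arrays lay below both DP arrays for 28 of the 55 genes (50.9%) and above them for 14 (25.5%), against 29.1% and 32.4% of all tested genes. Both CD4intCD8+ arrays lay below both DP arrays for 26 (47.3%) and above them for 14 (25.5%), against 27.9% and 30.8% of all tested genes. These comparisons share the DP arrays and are not independent.

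Between CD8SP and CD4intCD8+ cells, none of the 55 genes was called by limma at an adjusted p under 0.05, where 13 of all tested genes (0.119%) were. At an unadjusted p under 0.05, 6 of the 55 genes passed (Bmi1, Chd3, Ezh2, Hdac4, Kat2a and Kdm5b), or 10.9%, which is near the 9.61% of all tested genes. The median log2 difference was -0.07, against 0.00 over all tested genes, with 36 of 55 genes below 0. Over the 3 stages together, the moderated F test called 12 of the 55 genes (21.8%), against 15.2% of all tested genes.

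**Figure D1:**
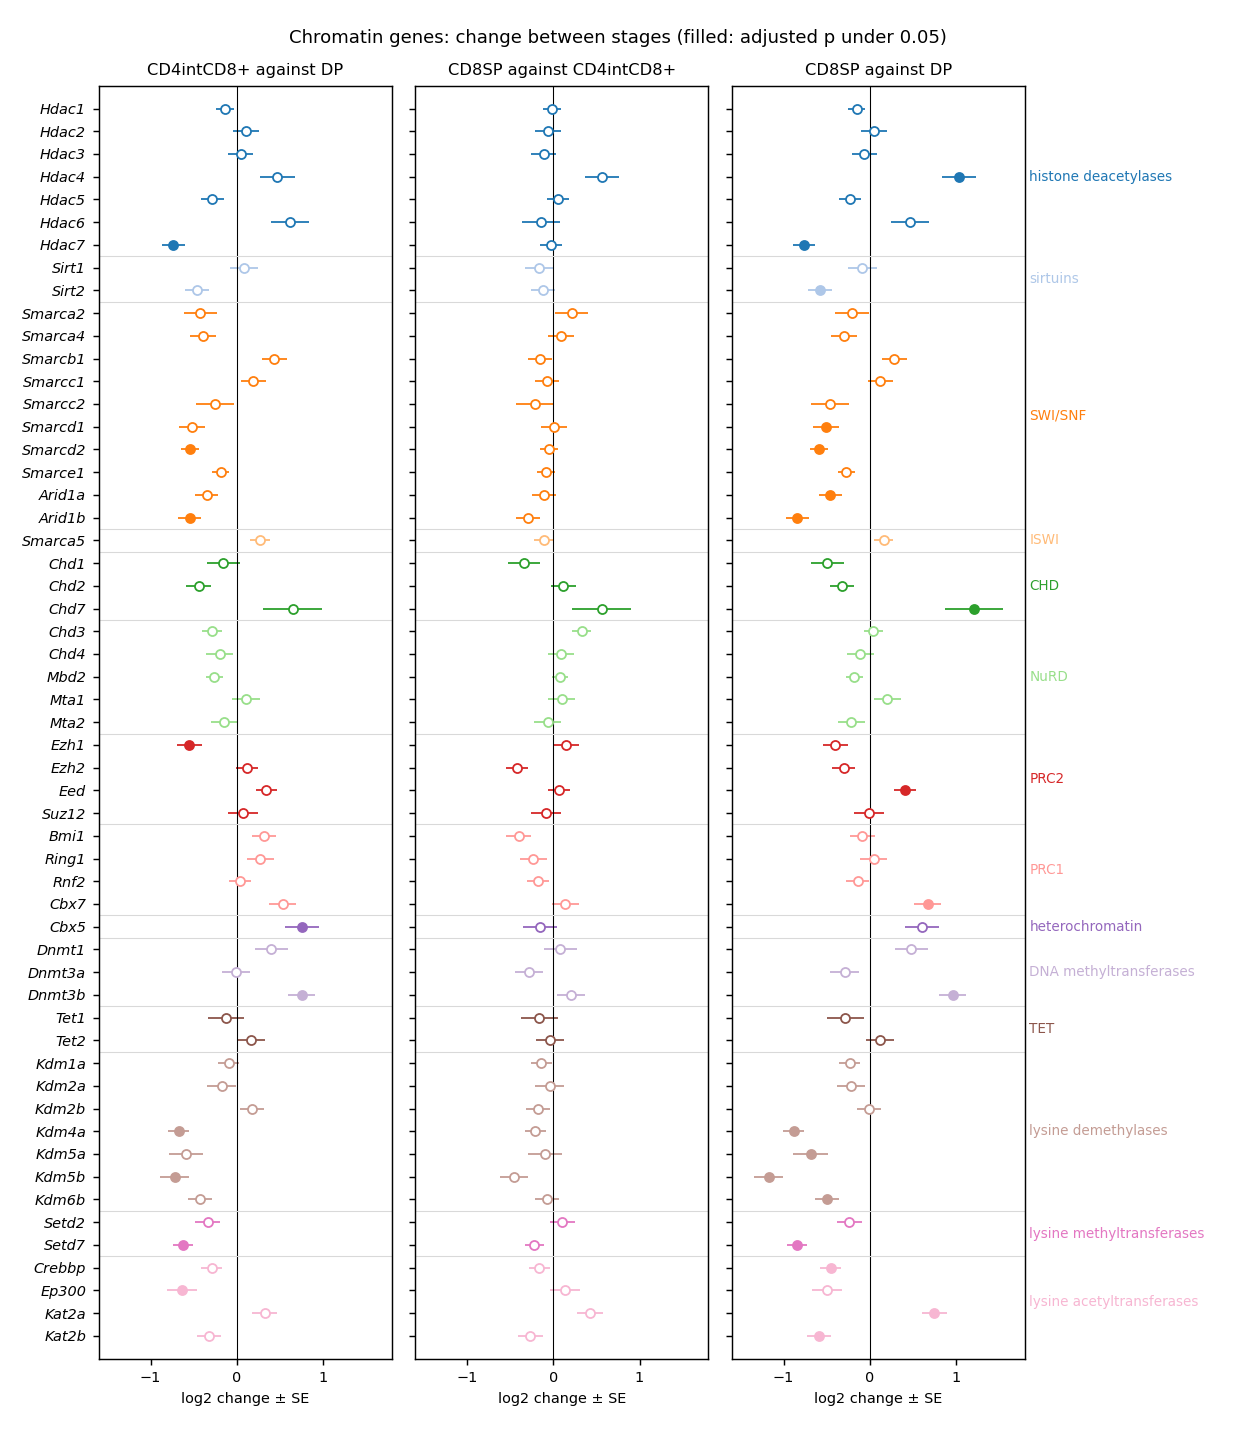
Log2 difference of each of the 55 tested chromatin genes, grouped and coloured by role, for CD4intCD8+ against DP, CD8SP against CD4intCD8+ and CD8SP against DP. Points are fitted differences with standard errors and filled points passed the test at an adjusted p under 0.05. In CD8SP against DP, 13 filled points lie below 0 and 6 above, and the middle panel has none.

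The arrays with the same replicate number deviated together, and with that number as a block the count for CD4intCD8+ against DP came to 24 of 55 genes, against 23.5% of all tested genes. Of these, 17 were lower, as were 10.1% of all tested genes, and 7 were higher, as were 13.3% of all tested genes. The 14 further genes were Cbx7, Chd2, Chd3, Chd7, Eed, Hdac6, Kdm5a, Kdm6b, Mbd2, Sirt2, Smarca2, Smarca4, Smarcb1 and Smarcd1. For CD8SP against DP the block gave 27 of 55, with Cbx5, Chd1, Chd2, Dnmt1, Ep300, Ezh1, Smarcc2 and Smarce1 added. Of these, 19 were lower, as were 13.1% of all tested genes, and 8 were higher, as were 16.9% of all tested genes. With the block, 227 of all tested genes (2.08%) were called for CD8SP against CD4intCD8+, and none of the 55. Over any stage the F test with the block called 27 of the 55, against 28.4% of all tested genes.

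Over all tested genes, calls for CD4intCD8+ against DP became fewer without either DP array or CD4intCD8+ replicate 2. The calls of list members in this comparison depended on single arrays too. None of the 10 was kept through every omission of 1 array: Kdm5b alone remained without DP replicate 1, none without DP replicate 2 (adjusted p from 0.0556 to 0.148), and Smarcd2 without CD4intCD8+ replicate 2. In CD8SP against DP, 7 of 19 calls were kept without any 1 of the 6 arrays: Hdac7, Smarcd2, Arid1b, Dnmt3b, Kdm4a, Kdm5b and Setd7. Calls over all tested genes in CD8SP against DP also became fewer without either DP array or either CD8SP array. In these omissions the array left alone in its stage is assumed to vary like the other stages. Adding the actin ratio to the fit, 2 of the 55 genes (Smarcd2 and Chd7, 3.64%) were called for CD4intCD8+ against DP, where 3.73% of all tested genes were, and 15 (27.3%) for CD8SP against DP, where 18.8% of all tested genes were.

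**Figure D2:**
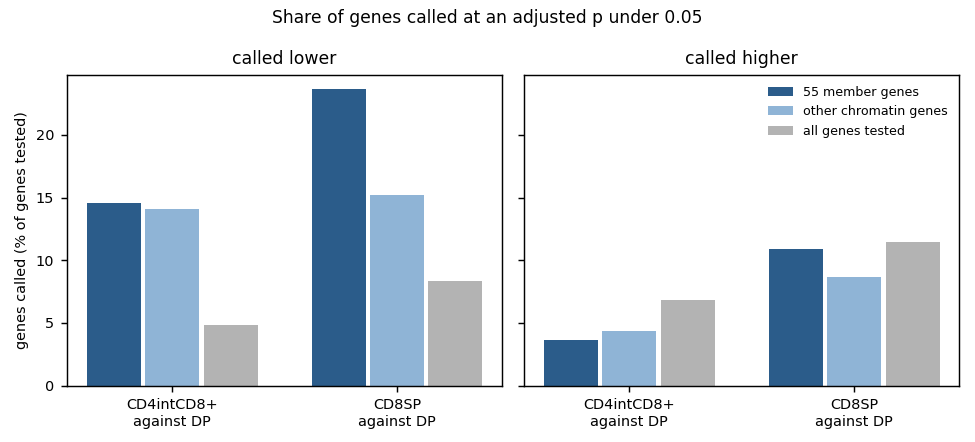
Percent of genes called lower (left) and higher (right) in CD4intCD8+ and in CD8SP against DP, for the 55 chromatin genes, the 92 further chromatin genes tested and all 10916 genes tested. For CD8SP against DP the lower bar stands at 23.6% for the 55 genes and 8.35% for all genes, and the higher bars at 10.9% and 11.5%.

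Promoter sequences of RefSeq (GRCm38.p6) were found for 46 of the 57 genes, as 61 promoters, and the 250 bases before the transcription start are shown for the 2 falling and 2 rising genes with the smallest p for CD8SP against DP among those with a single listed promoter. They let the sequence at the start of genes that moved in opposite directions be read side by side. Each is written 5′ to 3′ on the strand of the gene, at chr3:51560824-51561073 (minus strand) for Setd7, chr4:118180044-118180293 (minus strand) for Kdm4a, chr2:153649199-153649448 (plus strand) for Dnmt3b and chr1:92180342-92180591 (minus strand) for Hdac4. Capitals mark matches, on either strand, to 4 short motifs: the E box CAGNTG of E proteins, the ETS motif CCGGAAG, the RUNX motif TGTGGT and the E2F motif GCGGGAA.
Setd7: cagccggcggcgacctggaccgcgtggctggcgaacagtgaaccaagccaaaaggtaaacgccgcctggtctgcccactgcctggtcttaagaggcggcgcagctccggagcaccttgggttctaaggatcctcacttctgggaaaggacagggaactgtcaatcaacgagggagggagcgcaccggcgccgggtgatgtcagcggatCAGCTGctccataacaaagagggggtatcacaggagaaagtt
Kdm4a: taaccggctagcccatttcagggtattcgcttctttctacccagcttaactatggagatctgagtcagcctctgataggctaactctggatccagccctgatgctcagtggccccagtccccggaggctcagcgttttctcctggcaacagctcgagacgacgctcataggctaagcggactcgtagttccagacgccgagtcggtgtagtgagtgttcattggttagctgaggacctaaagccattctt
Dnmt3b: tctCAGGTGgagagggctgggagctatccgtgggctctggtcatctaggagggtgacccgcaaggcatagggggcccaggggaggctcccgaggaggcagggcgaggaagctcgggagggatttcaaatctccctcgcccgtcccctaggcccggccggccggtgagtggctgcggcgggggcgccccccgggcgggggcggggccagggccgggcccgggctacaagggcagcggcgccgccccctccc
Hdac4: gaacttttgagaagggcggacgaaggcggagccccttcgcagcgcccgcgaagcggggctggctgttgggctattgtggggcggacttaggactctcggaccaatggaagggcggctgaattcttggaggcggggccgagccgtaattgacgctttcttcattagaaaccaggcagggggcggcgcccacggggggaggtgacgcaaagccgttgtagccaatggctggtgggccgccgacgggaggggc
Setd7 and Dnmt3b hold 1 E box each, and the Kdm4a and Hdac4 windows hold no match to these letters. No matches of different motifs overlapped in these windows. Of the 61 promoters of the list, 16 (26.2%) hold an E box, 3 (4.92%) the ETS motif, 9 (14.8%) the RUNX motif and 4 (6.56%) the E2F motif, against 44.8%, 6.91%, 14.0% and 3.82% of 32851 promoters of the same length. The median GC content was 60.8% in 16 promoters of the genes that fell in CD8SP, with a range of 40.8% to 84.0%. It was 64.8% in 5 promoters of those that rose (48.8% to 75.2%) and 68.4% in 37 of those not called (50.4% to 83.6%). Over all promoters it was 52.4%. The ranges of these groups overlapped, and their difference was not tested. A match describes the letters and not a bound site. Genes with no entry in the sequence table were Hdac1, Hdac3, Smarce1, Chd1, Chd2, Chd3, Chd7, Kdm2a, Kdm5a, Kdm6b and Mbd2.

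Of 9 histone methyltransferases and demethylases tested, 3 fell in CD4intCD8+ and 5 in CD8SP against DP, and none rose. The shares over all tested genes were 4.84% and 8.35% lower, and 6.86% and 11.5% higher. Setd7, which adds a single methyl group to histone H3 and to other proteins, had intensities of 795 and 725 in DP cells, 495 and 485 in CD4intCD8+ cells and 415 and 425 in CD8SP cells. Both CD8SP arrays lay below both CD4intCD8+ arrays, and those below both DP arrays. It fell by 0.84 ± 0.11 on the log2 scale in CD8SP (adjusted p = 0.00134) and by 0.63 ± 0.11 in CD4intCD8+ (adjusted p = 0.0115), the call in CD4intCD8+ being lost on leaving out DP replicate 1, DP replicate 2 or CD4intCD8+ replicate 2 (adjusted p between 0.0577 and 0.0826). Kdm4a, a demethylase of histone H3 lysines, had 550.1 and 603 in DP cells, 362 and 357 in CD4intCD8+ cells and 323 and 298 in CD8SP cells. The order of the stages was the same and no arrays overlapped. It fell by 0.88 ± 0.12 in CD8SP (adjusted p = 0.00158) and by 0.67 ± 0.12 in CD4intCD8+ (adjusted p = 0.0116), the call in CD4intCD8+ being lost on leaving out DP replicate 1, DP replicate 2 or CD4intCD8+ replicate 2 (adjusted p between 0.054 and 0.0803). The only other Kdm4a probe lay under the filter, with intensities from -7.41 to 6.79, so that the fall was read from 1 probe.

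Kdm5a and Kdm5b remove methyl groups from the histone H3 lysine that marks active promoters, and Kdm6b removes the Polycomb mark. Kdm5b had 344 and 462 in DP cells, 242 and 238 in CD4intCD8+ cells and 187 and 162 in CD8SP cells, with no overlap between any stages. It fell by 1.17 ± 0.17 in CD8SP (adjusted p = 0.00173), the largest fall among the 55 genes on the probes used, and by 0.72 ± 0.17 in CD4intCD8+ (adjusted p = 0.0261), the call in CD4intCD8+ being lost on leaving out DP replicate 2 or CD4intCD8+ replicate 2 (adjusted p between 0.0915 and 0.148). Kdm5a had 288 and 329 in DP cells, 216 and 191 in CD4intCD8+ cells and 235 and 152 in CD8SP cells, with both DP arrays above the other 4. It fell by 0.69 ± 0.20 in CD8SP (adjusted p = 0.0418), a call lost on leaving out DP replicate 1, DP replicate 2 or CD8SP replicate 2 (adjusted p between 0.107 and 0.233). In CD4intCD8+ its difference was -0.59 ± 0.20 (adjusted p = 0.0892, and 0.0311 with the replicate block). Kdm6b had 206 and 224 in DP cells, 165 and 153 in CD4intCD8+ cells and 161 and 141 in CD8SP cells, again with DP above the other 4 arrays. It fell by 0.50 ± 0.14 in CD8SP (adjusted p = 0.0382), a call lost on leaving out DP replicate 1, DP replicate 2, CD8SP replicate 1 or CD8SP replicate 2 (adjusted p between 0.0602 and 0.195), and its difference in CD4intCD8+ was -0.42 ± 0.14 (adjusted p = 0.085, and 0.0398 with the block).

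The other 4 genes of this group, Kdm1a, Kdm2a, Kdm2b and Setd2, were not called in any comparison. Setd2, which marks the bodies of transcribed genes, had 301 and 279 in DP cells, 215 and 242 in CD4intCD8+ cells and 225 and 268 in CD8SP cells, with both DP arrays above the others and a log2 difference of -0.24 ± 0.14 in CD8SP (adjusted p = 0.293). Kdm1a, a demethylase of repressor complexes, gave -0.23 ± 0.12 in CD8SP against DP, Kdm2a -0.22 ± 0.17 and Kdm2b -0.01 ± 0.14.

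**Figure D3:**
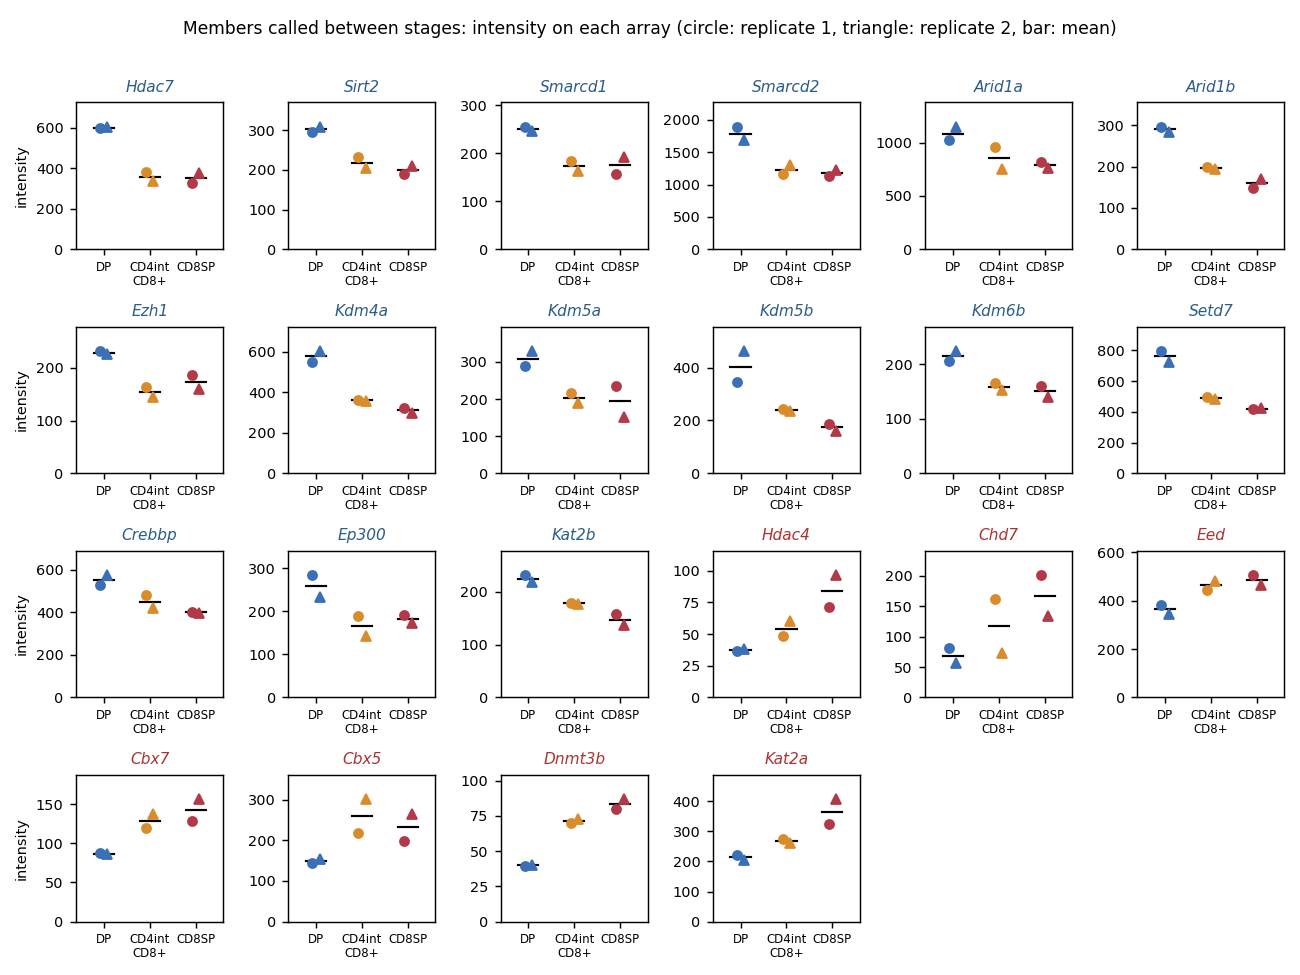
Intensity on each of the 6 arrays of the 22 chromatin genes called in at least 1 comparison, with stages DP, CD4intCD8+ and CD8SP from left to right in each panel. Circles are replicate 1, triangles replicate 2 and bars stage means, and gene names are blue where lower than in DP and red where higher. For Setd7, Kdm4a, Kdm5b, Arid1b, Crebbp, Kat2b, Dnmt3b, Hdac4 and Kat2a no arrays of different stages overlap.

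Of 4 lysine acetyltransferases tested, 1 fell in CD4intCD8+ against DP, and 2 fell and 1 rose in CD8SP against DP. Among all tested genes, 4.84% fell in the former, and 8.35% fell and 11.5% rose in the latter. Crebbp and Ep300 are paralogous coactivators, and Kat2a and Kat2b are the alternative catalytic subunits of SAGA-type complexes. Kat2a had 221 and 206 in DP cells, 275 and 263 in CD4intCD8+ cells and 324 and 407 in CD8SP cells, which increased over the stages without overlap. It rose by 0.75 ± 0.15 on the log2 scale in CD8SP against DP (adjusted p = 0.00812), a call lost on leaving out DP replicate 2 or CD8SP replicate 2 (adjusted p between 0.0606 and 0.0612). Kat2b had 231 and 218 in DP cells, 178 and 177 in CD4intCD8+ cells and 158 and 136 in CD8SP cells, the opposite order, again without overlap. It fell by 0.59 ± 0.14 in CD8SP against DP (adjusted p = 0.0182), a call lost on leaving out DP replicate 1, DP replicate 2 or CD8SP replicate 2 (adjusted p between 0.0699 and 0.118). In CD4intCD8+ against DP, neither was called, at 0.32 ± 0.15 for Kat2a and -0.33 ± 0.14 for Kat2b.

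Crebbp had 529 and 575 in DP cells, 481 and 419.7 in CD4intCD8+ cells and 403 and 399 in CD8SP cells, with no overlap between the stages. It fell by 0.45 ± 0.12 in CD8SP against DP (adjusted p = 0.0333), a call lost on leaving out DP replicate 1, DP replicate 2, CD8SP replicate 1 or CD8SP replicate 2 (adjusted p between 0.0871 and 0.162). Ep300 had 284 and 233 in DP cells, 188 and 143 in CD4intCD8+ cells and 191 and 172 in CD8SP cells, with DP above the other 4 arrays. It fell by 0.63 ± 0.17 in CD4intCD8+ against DP (adjusted p = 0.0468), a call lost on leaving out DP replicate 1, DP replicate 2, CD4intCD8+ replicate 2, CD8SP replicate 1 or CD8SP replicate 2 (adjusted p between 0.0545 and 0.266), and its difference in CD8SP was -0.49 ± 0.17 (adjusted p = 0.0773, and 0.0133 with the replicate block).

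Among the 7 classical histone deacetylases, the class II enzymes Hdac7 and Hdac4 moved in opposite directions, and the other 5 were not called. In CD8SP against DP 1 of the 7 fell and 1 rose (14.3% each), where 8.35% and 11.5% of all tested genes did. In CD4intCD8+ against DP 1 fell, where 4.84% of all tested genes did. Hdac7, a signal-regulated deacetylase highly expressed in DP thymocytes of normal mice, had 597 and 604 in DP cells, 382 and 336 in CD4intCD8+ cells and 328 and 375 in CD8SP cells. The DP arrays stood apart from the other 4, which overlapped each other. It fell by 0.73 ± 0.13 in CD4intCD8+ (adjusted p = 0.0108) and by 0.76 ± 0.13 in CD8SP (adjusted p = 0.00416), the call in CD4intCD8+ being lost on leaving out DP replicate 1, DP replicate 2 or CD4intCD8+ replicate 2 (adjusted p between 0.0609 and 0.07). Hdac4 had 36.7 and 38.3 in DP cells, 48.7 and 60.2 in CD4intCD8+ cells and 71.2 and 96.6 in CD8SP cells, increasing over the stages without overlap from a dim level. It rose by 1.04 ± 0.20 in CD8SP against DP (adjusted p = 0.00787), a call lost on leaving out DP replicate 1 or CD8SP replicate 2 (adjusted p between 0.0538 and 0.0636). Hdac6, which deacetylates tubulin and other cytoplasmic proteins, had 52.1 and 47.5 in DP cells, 69.7 and 89.8 in CD4intCD8+ cells and 57.3 and 87.4 in CD8SP cells, with a difference of 0.61 ± 0.22 in CD4intCD8+ (adjusted p = 0.103, and 0.0413 with the replicate block).

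The class I enzymes Hdac1, Hdac2 and Hdac3, which form the catalytic cores of corepressor complexes, were not called: their log2 differences in CD8SP against DP were -0.15 ± 0.10, 0.05 ± 0.15 and -0.07 ± 0.14, and that of Hdac5 was -0.23 ± 0.13. Of the 2 NAD-dependent sirtuins tested, 1 fell in CD8SP against DP, where 8.35% of all tested genes fell. Sirt2 had 296 and 308 in DP cells, 232 and 205 in CD4intCD8+ cells and 190.4 and 211 in CD8SP cells, with DP above the other 4 arrays. It fell by 0.58 ± 0.14 in CD8SP (adjusted p = 0.0181), a call lost on leaving out DP replicate 1, DP replicate 2 or CD8SP replicate 1 (adjusted p between 0.0776 and 0.097), and its difference in CD4intCD8+ was -0.46 ± 0.14 (adjusted p = 0.0595, and 0.0242 with the block). Sirt1 was not called, at -0.09 ± 0.16 in CD8SP against DP.

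Of the 10 SWI/SNF subunits tested, 2 fell in CD4intCD8+ and 4 in CD8SP against DP, and none rose. For all tested genes the shares were 4.84% and 8.35% lower, and 6.86% and 11.5% higher. Arid1b, one of the alternative DNA-binding subunits, had 296 and 284 in DP cells, 200 and 193 in CD4intCD8+ cells and 148 and 171 in CD8SP cells, with no overlap between the stages. It fell by 0.84 ± 0.14 in CD8SP (adjusted p = 0.00343) and by 0.55 ± 0.14 in CD4intCD8+ (adjusted p = 0.0344), the call in CD4intCD8+ being lost on leaving out DP replicate 1, DP replicate 2, CD4intCD8+ replicate 1 or CD4intCD8+ replicate 2 (adjusted p between 0.0706 and 0.165). Its paralog Arid1a had 1021 and 1146 in DP cells, 959.5 and 748 in CD4intCD8+ cells and 815 and 759 in CD8SP cells, and fell by 0.46 ± 0.14 in CD8SP (adjusted p = 0.0443), a call lost on leaving out DP replicate 1, DP replicate 2, CD8SP replicate 1 or CD8SP replicate 2 (adjusted p between 0.0869 and 0.212). For Arid1a the DP arrays lay above the other 4, of which CD4intCD8+ and CD8SP overlapped.

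Smarcd1 and Smarcd2 are alternative subunits that link the complex to transcription factors. Smarcd2 had 1889.9 and 1687 in DP cells, 1158 and 1295 in CD4intCD8+ cells and 1139 and 1231 in CD8SP cells, with both DP arrays above the other 4. It fell by 0.54 ± 0.10 in CD4intCD8+ (adjusted p = 0.0139) and by 0.59 ± 0.10 in CD8SP (adjusted p = 0.00519), the call in CD4intCD8+ being lost on leaving out DP replicate 1 or DP replicate 2 (adjusted p between 0.0556 and 0.0986). Smarcd1 had 255 and 247 in DP cells, 184 and 163 in CD4intCD8+ cells and 157 and 193 in CD8SP cells, in the same arrangement. It fell by 0.51 ± 0.15 in CD8SP (adjusted p = 0.0429), a call lost on leaving out DP replicate 1, DP replicate 2, CD8SP replicate 1 or CD8SP replicate 2 (adjusted p between 0.05 and 0.205), and its difference in CD4intCD8+ was -0.52 ± 0.15 (adjusted p = 0.0553, and 0.0225 with the replicate block).

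The ATPases and the other 4 subunits were not called in any comparison of the main fit. Smarca4, the main ATPase of the complex, had 669.6 and 702 in DP cells, 509 and 534 in CD4intCD8+ cells and 479.6 and 643 in CD8SP cells, with DP above the other 4 arrays and a difference of -0.39 ± 0.15 in CD4intCD8+ (adjusted p = 0.117, and 0.0315 with the replicate block). The core subunit Smarcb1 had 237 and 228 in DP cells, 294 and 341 in CD4intCD8+ cells and 264 and 307 in CD8SP cells, with DP below the other 4 arrays, and gave 0.44 ± 0.14 in CD4intCD8+ (adjusted p = 0.0796, and 0.0269 with the block). Smarce1, a DNA-binding subunit, had 935 and 964 in DP cells, 849 and 817 in CD4intCD8+ cells and 800.1 and 771 in CD8SP cells, and gave -0.27 ± 0.10 in CD8SP (adjusted p = 0.0898, and 0.0399 with the block). The alternative ATPase Smarca2 gave -0.42 ± 0.19 in CD4intCD8+ (adjusted p = 0.188, and 0.023 with the block). The scaffold subunit Smarcc1 gave 0.12 ± 0.14 in CD8SP against DP, and Smarcc2 gave -0.46 ± 0.22 (adjusted p = 0.18, and 0.0458 with the block).

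The ISWI, CHD and NuRD lists had 1, 3 and 5 genes tested. Over all tested genes, 11.5% rose and 8.35% fell in CD8SP against DP. Chd7 was the only gene of these lists that was called in the main fit. This remodeler, which binds enhancers, had 82.2 and 55.9 in DP cells, 163 and 73.3 in CD4intCD8+ cells and 201 and 134 in CD8SP cells. Replicate 1 lay above replicate 2 at every stage, and the CD8SP arrays lay above both DP arrays. It rose by 1.21 ± 0.34 on the log2 scale in CD8SP against DP (adjusted p = 0.0375, and 0.00042 with the replicate block), a call lost on leaving out DP replicate 1, DP replicate 2 or CD8SP replicate 1 (adjusted p between 0.0776 and 0.208). In CD4intCD8+ it gave 0.65 ± 0.34 (adjusted p = 0.248, and 0.0185 with the block), where the arrays overlapped. Chd2 had 417 and 364 in DP cells, 303 and 269 in CD4intCD8+ cells and 336 and 286 in CD8SP cells, and gave -0.44 ± 0.14 in CD4intCD8+ (adjusted p = 0.0806, and 0.0159 with the block) and -0.32 ± 0.14 in CD8SP against DP (adjusted p = 0.153, and 0.0462 with the block). Chd1, which binds methylated histone H3 at active promoters, gave -0.49 ± 0.19 in CD8SP against DP (adjusted p = 0.0987, and 0.0269 with the block). It was also called there with each gene's probes averaged and with the actin ratio as covariate.

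NuRD joins a remodeling ATPase to deacetylases. Its ATPase Chd3 had 821 and 742 in DP cells, 661 and 619 in CD4intCD8+ cells and 840.1 and 769 in CD8SP cells, with -0.29 ± 0.11 in CD4intCD8+ against DP (adjusted p = 0.132, and 0.0433 with the block) and 0.33 ± 0.11 in CD8SP against CD4intCD8+ (adjusted p = 0.375, and 0.106 with the block). Mbd2, which binds methylated DNA, had 1085 and 1121 in DP cells, 918 and 925 in CD4intCD8+ cells and 953 and 994 in CD8SP cells, with DP above the other 4 arrays and -0.26 ± 0.10 in CD4intCD8+ (adjusted p = 0.112, and 0.0469 with the block). Chd4, the other ATPase, gave -0.11 ± 0.15 in CD8SP against DP, and the subunits Mta1 and Mta2 gave 0.20 ± 0.16 and -0.21 ± 0.16. The ISWI ATPase Smarca5 gave 0.16 ± 0.11.

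Of 8 Polycomb genes tested, 1 fell in CD4intCD8+ and 2 rose in CD8SP against DP. Over all tested genes, 4.84% fell in the former and 11.5% rose in the latter. Polycomb repressive complex PRC2 methylates histone H3 and PRC1 binds that mark and ubiquitylates histone H2A. Ezh1, a PRC2 methyltransferase prominent in resting cells, had 232 and 226 in DP cells, 164 and 146 in CD4intCD8+ cells and 186 and 159 in CD8SP cells, with DP above the other 4 arrays. It fell by 0.55 ± 0.14 in CD4intCD8+ against DP (adjusted p = 0.0413), a call lost on leaving out DP replicate 1, DP replicate 2, CD4intCD8+ replicate 1 or CD4intCD8+ replicate 2 (adjusted p between 0.0521 and 0.216), and gave -0.40 ± 0.14 in CD8SP (adjusted p = 0.085, and 0.0333 with the replicate block). Its paralog Ezh2, prominent in dividing cells, had 736 and 646 in DP cells, 684 and 821 in CD4intCD8+ cells and 536 and 580.1 in CD8SP cells. The CD8SP arrays were the lowest, with -0.42 ± 0.13 against CD4intCD8+ (adjusted p = 0.318) and -0.30 ± 0.13 against DP (adjusted p = 0.139).

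Eed, the PRC2 subunit that reads the methyl mark, had 384 and 345 in DP cells, 446 and 482 in CD4intCD8+ cells and 506 and 465 in CD8SP cells, with DP below the other 4 arrays. It rose by 0.41 ± 0.13 in CD8SP against DP (adjusted p = 0.0497), a call at the threshold that was lost on leaving out any 1 of the 6 arrays (adjusted p between 0.063 and 0.218). In CD4intCD8+ Eed gave 0.35 ± 0.13 (adjusted p = 0.106, and 0.0471 with the block). Cbx7, a reader subunit of PRC1, had 87.6 and 85.9 in DP cells, 119 and 138 in CD4intCD8+ cells and 128 and 157 in CD8SP cells, with DP again lowest. It rose by 0.67 ± 0.16 in CD8SP (adjusted p = 0.0178), a call lost on leaving out DP replicate 1, DP replicate 2 or CD8SP replicate 2 (adjusted p between 0.0835 and 0.123), and gave 0.54 ± 0.16 in CD4intCD8+ (adjusted p = 0.0585, and 0.0197 with the block). Suz12, Bmi1, Ring1 and Rnf2 were not called, and in CD8SP against DP they gave -0.01 ± 0.17, -0.09 ± 0.14, 0.04 ± 0.15 and -0.14 ± 0.13.

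Of 6 DNA methylation and heterochromatin genes tested, 2 rose in CD4intCD8+ and 1 in CD8SP against DP, and none fell. Over all tested genes 6.86% and 11.5% rose, and 4.84% and 8.35% fell. Dnmt3b, which methylates DNA at new sites, had 39.7 and 40.2 in DP cells, 69.7 and 73.0 in CD4intCD8+ cells and 79.9 and 86.8 in CD8SP cells, increasing over the stages without overlap from a dim level. It rose by 0.75 ± 0.16 in CD4intCD8+ (adjusted p = 0.0198) and by 0.96 ± 0.16 in CD8SP (adjusted p = 0.00382), the call in CD4intCD8+ being lost on leaving out DP replicate 1, DP replicate 2 or CD4intCD8+ replicate 2 (adjusted p between 0.0882 and 0.1). Cbx5, the heterochromatin protein that reads methylated histone H3, had 145 and 153 in DP cells, 217 and 301 in CD4intCD8+ cells and 199 and 265 in CD8SP cells, with DP below the other 4 arrays. It rose by 0.76 ± 0.19 in CD4intCD8+ (adjusted p = 0.0372), a call lost on leaving out DP replicate 1, DP replicate 2 or CD4intCD8+ replicate 2 (adjusted p between 0.129 and 0.203), and gave 0.61 ± 0.19 in CD8SP (adjusted p = 0.0565, and 0.00703 with the replicate block). Dnmt1, which copies methylation after DNA replication, had 458 and 445 in DP cells, 525 and 681 in CD4intCD8+ cells and 523 and 766 in CD8SP cells, with replicate 2 above replicate 1 in CD4intCD8+ and CD8SP, and gave 0.48 ± 0.19 in CD8SP (adjusted p = 0.108, and 0.0209 with the block). Dnmt3a, the other enzyme for new sites, was not called, at -0.29 ± 0.16 in CD8SP against DP, and neither were Tet1 and Tet2, at -0.28 ± 0.21 and 0.12 ± 0.16.

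The platform gave 144 probes for the list, and 41 genes had more than 1. Above the filter, 61 further probes of 36 genes could be set beside the probe used, while 27 others lay under it, with intensities from -13.7 to 31.0. For CD4intCD8+ against DP 51 of these 61 had the same sign and 10 the opposite one, and for CD8SP against DP 49 and 12. Of further probes for genes called in CD8SP against DP, 17 had the same sign and 3 the opposite one, for Smarcd2, Cbx7 and Kdm5a, and for CD4intCD8+ against DP 8 and 1, for Ezh1. A further Hdac7 probe gave -1.18 on the log2 scale in CD8SP against DP, and further probes of Hdac4, Chd7 and Dnmt3b gave 1.06, 1.15 and 0.76. Both further probes of Kat2a were above 0, at 0.87 and 0.42. For genes not called in the main fit, the further probes of Dnmt1 gave 0.77 and 0.95, and those of Chd1 gave -0.63, -1.12 and -0.60. The opposite Cbx7 probe gave -0.56 in CD4intCD8+ and -0.17 in CD8SP against DP, with both DP arrays above the other 4, where the probe used had them below. A further Kdm5b probe gave -0.27, so the size of its fall differed between probes. Smarcd2 had 1 further probe at -0.81 and 1 at 0.09.

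**Figure D4:**
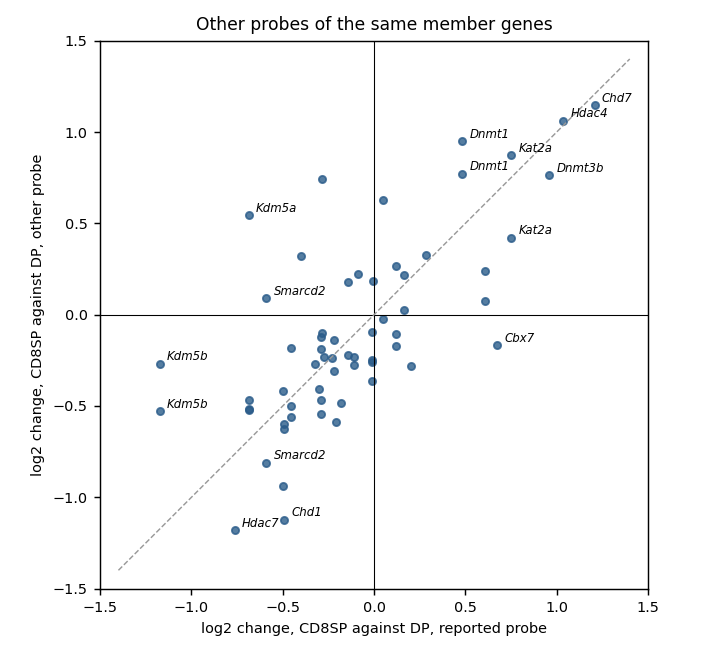
Log2 difference of each of the 61 further probes above the filter against that of the probe used for the same gene, for CD8SP against DP. Points in the lower left and upper right have the same sign on both probes, 49 of 61, and 12 lie in the other quadrants.

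A further 111 genes of the same families were listed, of which 100 had a probe and 92 were tested. In CD4intCD8+ against DP 13 (14.1%) fell and 4 (4.35%) rose, and in CD8SP against DP 14 (15.2%) fell and 8 (8.70%) rose. Over all tested genes, 4.84% fell and 6.86% rose in the former, and 8.35% fell and 11.5% rose in the latter. These all-gene shares also stand beside the family counts given below. Their median log2 difference was -0.19 and -0.21, and none was called between CD8SP and CD4intCD8+. With the replicate block the counts were 26 lower and 5 higher for CD4intCD8+ against DP, and 28 lower and 10 higher for CD8SP against DP. The block called 10.1% of all tested genes lower and 13.3% higher in the former, and 13.1% and 16.9% in the latter. Apart from the block, these further genes were not refitted one by one under the other settings.

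By family, the further histone methyltransferases and demethylases gave 6 of 25 lower and 1 higher in CD4intCD8+, and 4 lower and 2 higher in CD8SP. Carm1, an arginine methyltransferase and coactivator, had 113 and 131 in DP cells, 215 and 216 in CD4intCD8+ cells and 240.2 and 262 in CD8SP cells, increasing over the stages without overlap. It rose by 1.01 ± 0.14 on the log2 scale in CD8SP against DP (adjusted p = 0.00156). Kdm4b and Kdm3a, demethylases of the heterochromatin mark, and Kmt2a, which methylates active promoters, had lower values. Kdm4b fell by 0.76 ± 0.16 in CD4intCD8+ (adjusted p = 0.0207), Kmt2a by 0.74 ± 0.17 (adjusted p = 0.0235) and Kdm3a by 0.71 ± 0.12 in CD8SP (adjusted p = 0.00432).

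Among 23 further remodeler subunits, 4 fell and 1 rose in CD4intCD8+, and 4 fell and 3 rose in CD8SP. Arid2, the DNA-binding subunit of another SWI/SNF form, had 928 and 842 in DP cells, 553 and 576 in CD4intCD8+ cells and 448 and 514 in CD8SP cells, with DP above the other 4 arrays, and fell by 0.87 ± 0.12 in CD8SP (adjusted p = 0.00154). Baz2a, an ISWI partner at ribosomal genes, fell by 0.90 ± 0.18 in CD8SP (adjusted p = 0.00939) while the NuRD subunit Mta3 and the ISWI partner Baz1a rose by 0.77 ± 0.14 (adjusted p = 0.00549) and 0.54 ± 0.12 (adjusted p = 0.0146).

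Of 10 further acetyltransferases and bromodomain readers, 2 fell and 1 rose in CD4intCD8+, and 3 fell and 1 rose in CD8SP. Kat6b, an acetyltransferase of histone H3, had 139.6 and 106 in DP cells, 77.0 and 77.9 in CD4intCD8+ cells and 59.4 and 56.4 in CD8SP cells, decreasing over the stages without overlap, and fell by 1.00 ± 0.17 in CD8SP (adjusted p = 0.00427). Hat1, which acetylates newly made histones before they enter chromatin, rose by 0.70 ± 0.13 in CD4intCD8+ (adjusted p = 0.0115). The readers Brd2 and Brd3 fell in CD8SP by 0.66 ± 0.14 (adjusted p = 0.0108) and 0.55 ± 0.17 (adjusted p = 0.0464). Of 17 further Polycomb genes, 2 fell and 1 rose in CD8SP, where the PRC2 partners Jarid2 and Mtf2 fell by 0.51 ± 0.13 and 0.44 ± 0.11 (adjusted p = 0.0226 and 0.0186) and the PRC1 subunit Pcgf6 rose by 0.66 ± 0.19 (adjusted p = 0.0408). Of 7 further deacetylases and sirtuins, Sirt7 alone was called, and fell by 0.58 ± 0.12 in CD4intCD8+ (adjusted p = 0.017). Of 5 further DNA methylation genes, Uhrf1 alone was called; this partner of Dnmt1 had 394 and 330.2 in DP cells, 552 and 779 in CD4intCD8+ cells and 508 and 714 in CD8SP cells, and rose by 0.85 ± 0.20 in CD4intCD8+ (adjusted p = 0.03). None of 5 further heterochromatin genes was called.

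Genes for DNA replication moved beside these, and fewer genes for division did. Of 28 proliferation genes listed, 27 were tested, and 15 rose and none fell in CD4intCD8+ against DP, with 14 higher and none lower in CD8SP against DP. The shares of all tested genes that rose in these comparisons were 6.86% and 11.5%. Of the division genes, Bub1 was called higher in both comparisons. Ccna2, Ccnb2, Cdk1, Mki67, Top2a, Aurka, Aurkb, Birc5 and Plk1 had values above 0 but were called in neither. With the replicate block, 24 and 20 of the 27 genes were called higher, where 13.3% and 16.9% of all tested genes were. The median log2 difference of the 27 genes was 0.76 and 0.69. The helicase-loading factor Cdc6 rose by 1.86 ± 0.32 in CD4intCD8+ (adjusted p = 0.0103), the replication factor Gins2 by 1.65 ± 0.30 (adjusted p = 0.0113) and the polymerase subunit Pola1 by 1.47 ± 0.25 (adjusted p = 0.0103). The summed intensity of the 27 genes was 12852 and 14156 in DP cells, 18266 and 24730.1 in CD4intCD8+ cells and 17049 and 21717 in CD8SP cells, so that replicate 2 was the higher array at every stage. Their part in the changes of the chromatin genes was not tested.

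Markers of cells other than thymocytes moved in a few cases. Of 26 such markers, 12 were tested, and 2 rose and none fell in CD4intCD8+ against DP, with 4 higher and none lower in CD8SP against DP. These were 16.7% and 33.3% of the 12, where 6.86% and 11.5% of all tested genes rose. The dendritic cell markers Cd74 and H2-Ab1 rose in both comparisons, and H2-Aa and the B cell marker Cd79b passed the test in CD8SP against DP. The dendritic markers Itgax and Siglech lay under the filter, with log2 differences of -0.04 and -0.09 in CD8SP against DP. Of the B cell markers, Ms4a1 was not called there, at 0.16 ± 0.46, and Cd79a and Pax5 lay under the filter. The summed intensity of 5 dendritic markers was 157 and 169 in DP cells, 283 and 327 in CD4intCD8+ cells and 344 and 521 in CD8SP cells. The sum of 4 B cell markers was 153 and 193 in DP cells, 194 and 88.4 in CD4intCD8+ cells and 227 and 220.4 in CD8SP cells. For 5 myeloid markers the sums lay between 153 and 215, for 4 epithelial between 111 and 135, for 3 erythroid between 84.6 and 147 and for 2 natural killer cell markers between 21.2 and 51.6. None of these markers was at or below 0 on both arrays of a stage. The sum of 3 markers of double-negative thymocytes was 110 and 108 in DP cells, 150.1 and 125 in CD4intCD8+ cells and 145 and 147 in CD8SP cells. Of these, Kit lay under the filter, with 11.1 and 6.19 in DP cells, 21.2 and 13.6 in CD4intCD8+ cells and 32.4 and 36.6 in CD8SP cells. Il2ra also lay under the filter, and Cd44 was not called. The part of all these markers in the results was not tested.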

How the data were processed

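The values used are linear intensities as deposited, 45101 probes by 6 arrays, 64 of the probes being controls. The calculation and scaling of these intensities by the authors are not given in the sources used here, but 9720 of the deposited values lie below 0, so some signal had been subtracted and dim genes carry little information. Biotin-labelled cRNA was made from total RNA, per the labels' protocols. All 6 columns were matched to samples by accession, and stage and replicate number come from the sample titles.

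Of the probes, 34945 carry 1 gene symbol in the platform annotation and 10092 carry several or none and were left out. Negative intensities became 0 before log2(intensity + 5.84), the pseudocount being the 10th percentile of positive values, so that changes of dim genes are understated. Each gene was represented by the probe with the highest mean, and 7277 genes under the 40th percentile of gene means (log2 5.19, an intensity of 30.8) were left out. Stages were compared with limma 3.58.1 in R 4.3.3 (lmFit, then eBayes with trend) on all 6 arrays, with 3 residual and 6.05 prior degrees of freedom, Benjamini-Hochberg adjustment over the 10916 genes of each contrast and a threshold of 0.05. Values after ± are standard errors of log2 differences. The procedure was tested on simulated data.

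After subtraction of stage means, arrays of the same number correlated across genes at 0.26, 0.21 and 0.30 in the 3 pairs of stages, and a pair of independent experiments is named in the design text. The main fit, with its standard errors and the figures, held stage alone, and the replicate numbers were treated as pairs only in the alternative fit with a block. The block is given where it changes a pairwise call of a list member. For the F test and for the further genes it is given as counts. The other alternatives were pseudocounts of 1 and 32, no filter or the 60th percentile, no trend, the mean of all probes, quantile normalization, the actin ratio as covariate and each array left out. The genes, the further lists and the alternatives were chosen with earlier results of these data known. Per-array values are given for the 30 genes with the smallest F-test p among those called with or without the block, and for a few others chosen after their values were seen. In each further list, up to 4 called genes with the largest change are named, and Uhrf1.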

Additional observations from a re-analysis of the deposited data

How the results depend on the processing

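No member of the list was called between CD8SP and CD4intCD8+ under any alternative run. For the contrasts of CD4intCD8+ and CD8SP against DP in which a named gene was called with or without the block, 540 values kept their direction and side of the threshold, 127 were no longer called, 30 became called and 4 changed direction. The changes of direction came with the mean of all probes: 0.0317 for Kdm4a, 0.0632 for Ezh1 and -0.16 for Cbx7 in CD4intCD8+ against DP, and 0.17 for Smarce1 in CD8SP against DP, on the log2 scale. For Kdm4a and Smarce1 the probe that turned the mean lay under the filter (-7.41 to 6.79 and -13.7 to 18.2), and both Smarce1 probes above it gave -0.27 and -0.23. For Ezh1 the opposite probe above the filter was dim (23.7 to 42.9). With the replicate block that pairs the arrays, all genes called came to 2562, 227 and 3277 for CD4intCD8+ against DP, CD8SP against CD4intCD8+ and CD8SP against DP, against 1277, 13 and 2166 without it, and list members to 24 for CD4intCD8+ against DP, 27 for CD8SP against DP and 27 over any stage (28.4% of all genes). In CD4intCD8+ against DP, 801 genes and 4 members were called without the intensity trend, 764 and 4 with each gene's probes averaged, and 407 and 2 with the actin ratio as covariate, so that members (7.27%, 7.27% and 3.64%) were called about as often as all genes (7.34%, 7.0% and 3.73%). In CD8SP against DP, members called were 12 without the trend (21.8%, against 15.9% of all genes) and 11 with probes averaged (20.0%, against 14.2%), which gave 7 over any stage (12.7%, against 10.5%). In CD8SP against CD4intCD8+, 8 genes were called at the 60th percentile filter, 2 with probes averaged and 34 with the actin covariate. Leaving out 1 array gave 187 to 1399 genes and 0 to 10 members in CD4intCD8+ against DP, 6 to 70 genes in CD8SP against CD4intCD8+, 1018 to 2345 genes and 8 to 20 members in CD8SP against DP, and 3 to 17 members over any stage. The lowest counts in the contrasts with DP came without a DP array. In CD4intCD8+ against DP, members were called less often than all genes without either DP array or CD4intCD8+ replicate 2. Members were called more often than all genes in its other omissions, and in every omission for CD8SP against DP and over any stage. In CD8SP against DP, Hdac7, Smarcd2, Arid1b, Kdm5b and Setd7 were called under all alternatives, and Dnmt3b under all but the 60th percentile filter, which leaves it untested. The cause of the other differences was not tested. With 2 arrays per stage and dim probes near the subtracted background, small changes cannot be resolved.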
